A study of Homo sapiens with 4 samples.

Results

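The genes described here are the tripartite motif (TRIM) genes, a family of ubiquitin ligases, in HCT116 human colon carcinoma cells grown as multicellular spheroids (MCS) or as monolayers. Members were the genes with a probe set whose only platform symbol was TRIM followed by a number, and the brightest probe set over all 4 arrays stood for each gene. There were 55 such genes among the 19775 genes with a probe set of their own, and 31 of them had a mean signal above 300 units and were tested. A low-signal filter of this kind passes a gene that is bright in 1 culture type alone.

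Total RNA was prepared from 2 untreated spheroid cultures and 2 untreated monolayer cultures, and each was hybridized to its own oligonucleotide array of 54675 probe sets. A multicellular spheroid is a three-dimensional aggregate whose core is poorly supplied with oxygen and nutrients, and the study compared it with the monolayer to describe quiescent, hypoxic tumour cells. All 4 cultures came from 1 cell line, without stroma or immune cells. The arrays had been scaled to a trimmed mean signal of 500.1 each, and 27.5% to 30.0% of their probe sets were above 300 units. Of 10 colon epithelium markers 5 passed the filter, namely EPCAM, CDH1, KRT8, KRT18 and KRT19. Signals of all 10 summed to 95450 and 91760 in spheroids and 80930 and 88490 in monolayers. CDH1 was at 4642.7 and 5419.2 in spheroids against 1212.7 and 1834.9 in monolayers, and KRT19 was likewise higher in spheroids. EPCAM and KRT18 overlapped between the groups, and KRT8 was lower in spheroids. The intestinal markers KRT20, CDX1, CDX2, VIL1 and CEACAM5 did not pass. None of 5 leukocyte markers with a probe set passed, with summed signals of 242.1 and 163.4 in spheroids and 179.4 and 65.93 in monolayers, and of 6 fibroblast markers only COL1A1 did (summed signals of 2413 and 2776 in spheroids against 1098 and 802.7 in monolayers), and the part of these markers in the results was not tested. In such bulk RNA, more cells that express a gene and more RNA of it per cell cannot be told apart.

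TRIM proteins carry a RING domain, which recruits a ubiquitin-conjugating (E2) enzyme, followed by B-box zinc fingers and a coiled coil through which they dimerize. The domain at the carboxyl end picks the substrate, and it sorts the family into classes: most members end in a PRY-SPRY domain, others in NHL repeats, a PHD finger with a bromodomain, or a MATH domain. Some members are induced by interferon and act in antiviral defence, binding viral capsids or attaching ubiquitin to the RNA sensor RIG-I and its partners, whereas others silence chromatin, regulate centrosomes or turn over cytoskeletal proteins.

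More TRIM genes were called higher than lower in spheroids on the deposited scale, and 6 of the 11 increases were in interferon-induced members; with arrays scaled to added control transcripts the family median turned negative. Of the 31 tested genes 11 were called higher in spheroids (35.5%), whereas 19.0% of all 8721 genes tested were called higher. Only 3 were called lower (9.68%), against 20.6% of all genes, and 17 were not called. Calls were made by limma at an adjusted p below 0.05, on log2(signal + 32) with Benjamini-Hochberg adjustment over all 8721 genes, and differences below are spheroid minus monolayer on that scale ± the standard error, n = 2 cultures per group. The median difference was 0.21 over the TRIM genes and -0.03 over all genes tested. Both spheroid arrays were above both monolayer arrays for 14 TRIM genes and below both for 9, when 33.4% of all genes were above and 36.6% below in this way. With all arrays scaled instead to the added Bacillus control transcripts, which were 1.82-fold brighter on the spheroid arrays, the median of all genes moved to -0.87 and that of the TRIM genes to -0.59. Under that scaling 0 TRIM genes were called higher by limma (2 at an unadjusted p below 0.05) and 11 were called lower. The directions below are thus relative to the average transcript of the same array. Geometric means of the control signals were 1639.7 and 1112.8 on the spheroid arrays and 700.35 and 787.14 on the monolayer arrays. Their spread between replicates enters every gene under that scaling, and whether equal amounts were added to each sample was not stated.

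**Figure D1:**
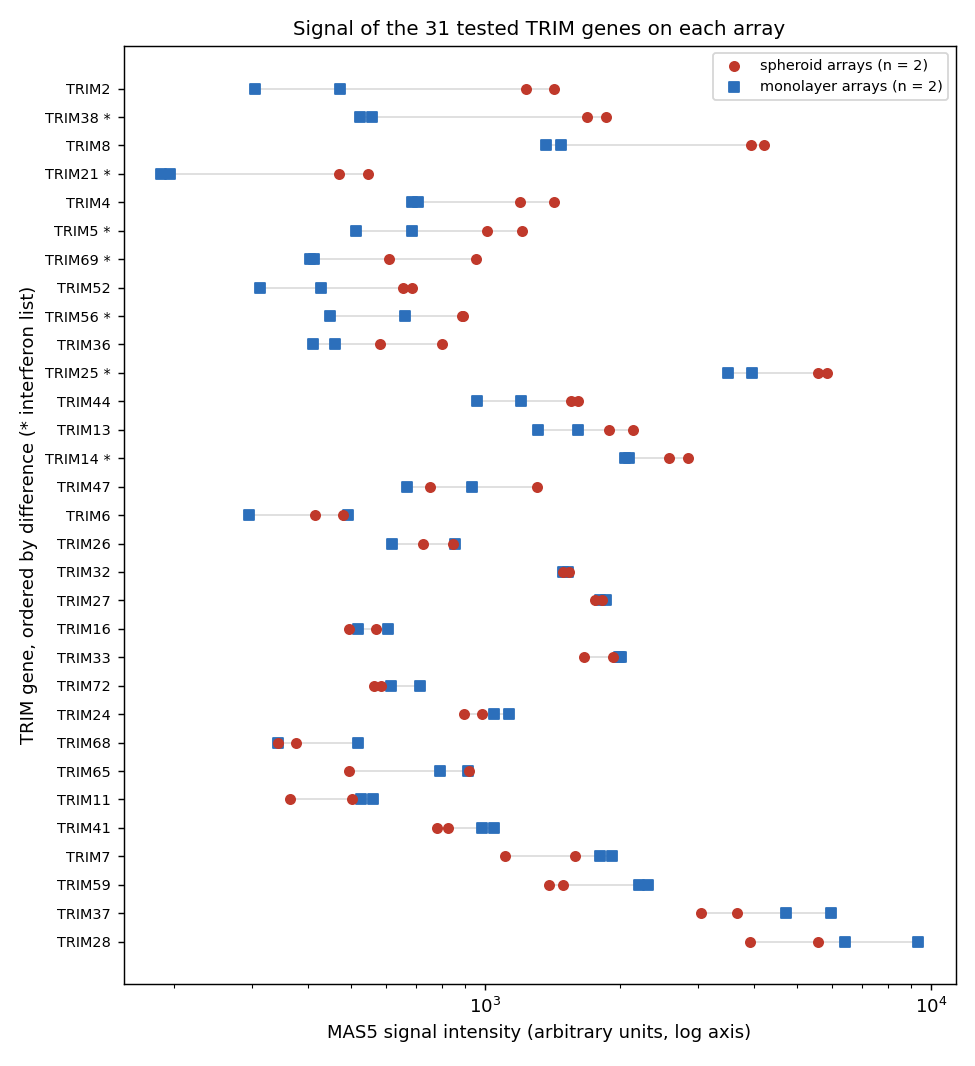
Signal of the 31 tested TRIM genes on each array (horizontal axis, MAS5 signal intensity in arbitrary units, log scale), 1 gene per row, ordered by the difference, with red circles for the 2 spheroid arrays and blue squares for the 2 monolayer arrays; asterisks mark the interferon-induced list. On this deposited scale circles lie right of both squares for 14 genes, among them all 7 of the list, and left of both for 9. Among all genes tested, 33.4% were above in this way and 36.6% below. Signals can be compared within a row only, since probe sets differ in brightness.

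The interferon-induced list held 9 genes, 8 with a probe set of their own and 7 that were tested. Of these 7, 6 were called higher in spheroids and 0 lower by limma (7 higher and 0 lower at an unadjusted p below 0.05). For all 7 the spheroid arrays lay above the monolayer arrays without overlap. The shares of all genes tested were 19.0% higher, 20.6% lower and 33.4% above without overlap. The median difference of the list was 0.85, and under Bacillus scaling it was 0.03. Among the 24 other tested TRIM genes 5 were called higher (20.8%) and 3 lower (12.5%), with a median of -0.05, close to that of all genes. A wider list that added TRIM6, TRIM26 and TRIM31 had 9 tested genes and the same 6 called higher. Without it, 22 genes remained, 5 of them called higher and 3 lower, with a median of -0.11.

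TRIM38, which restrains inflammatory signalling downstream of Toll-like receptors, showed the largest difference of the list. Its signal was 1686.8 and 1861.3 in spheroids, against 556.1 and 524.9 in monolayers. The replicate cultures lay close together, and the groups were far apart, by 1.66 ± 0.19 (limma, adjusted p = 4.39e-05), or 3.28-fold between the mean signals. TRIM21, the cytosolic receptor for antibody-coated viruses, had signals of 545.9 and 470.0 in spheroids and 187.8 and 195.9 in monolayers. Both monolayer values were below the 300-unit mark that its mean of all arrays passed. The difference was 1.27 ± 0.26 (limma, adjusted p = 0.00201). Both calls held when any 1 array was left out.

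TRIM5, a restriction factor that binds incoming retroviral capsids, had signals of 1009.7 and 1207.8 in spheroids and 685.8 and 513.3 in monolayers. The groups did not overlap, and the difference of 0.86 ± 0.22 was called (limma, adjusted p = 0.00748). The call was lost without monolayer 2 (0.66, adjusted p = 0.0619) and without spheroid 2 (0.74, adjusted p = 0.0549). TRIM69, a RING ligase with reported activity against RNA viruses, had signals of 953.8 and 609.6 in spheroids and 413.7 and 403.6 in monolayers. The monolayer cultures were nearly equal while the spheroid cultures differed by 1.56-fold, so that the difference of 0.85 ± 0.25 (limma, adjusted p = 0.0163) dropped to 0.54 without spheroid 1 (adjusted p = 0.170).

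TRIM25 attaches ubiquitin to RIG-I and is itself a ligase for the ubiquitin-like protein ISG15. Its signals were 5564.2 and 5833.0 in spheroids and 3504.4 and 3959.0 in monolayers. The groups were well separated, by 0.61 ± 0.14 (limma, adjusted p = 0.00453), although the value under Bacillus scaling was -0.25. The call held without any 1 array, but not when the probe sets of the gene were averaged (0.41, adjusted p = 0.0834). TRIM56, a ligase that promotes antiviral signalling through STING and double-stranded RNA sensing, had signals of 885.9 and 889.9 in spheroids and 447.5 and 659.1 in monolayers. Monolayer cultures were the more variable here, and the difference of 0.68 ± 0.23 (limma, adjusted p = 0.0330; -0.15 under Bacillus scaling) was no longer called without monolayer 1 (0.41, adjusted p = 0.286), spheroid 1 (adjusted p = 0.0939) or spheroid 2 (adjusted p = 0.0967).

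TRIM14, an adaptor that lacks a RING domain and joins the mitochondrial antiviral complex of MAVS, was the 1 tested member of the list that was not called. Its signals were 2588.3 and 2843.4 in spheroids and 2055.7 and 2099.8 in monolayers, so the groups were apart but near each other, with a difference of 0.38 ± 0.16 (limma, adjusted p = 0.0709). TRIM22, an interferon-induced antiviral ligase, did not pass the filter. Its signals were 87.9 and 88.0 in spheroids and 16.0 and 27.1 in monolayers. Both monolayer signals were within the range of the unspiked bacterial control probe sets, which reached 35.0, and with no filter the fitted difference of 1.17 ± 0.38 was not called (limma, adjusted p = 0.0871). TRIM34 had probe sets only in common with the TRIM6-TRIM34 readthrough gene and was given no value.

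**Figure D2:**
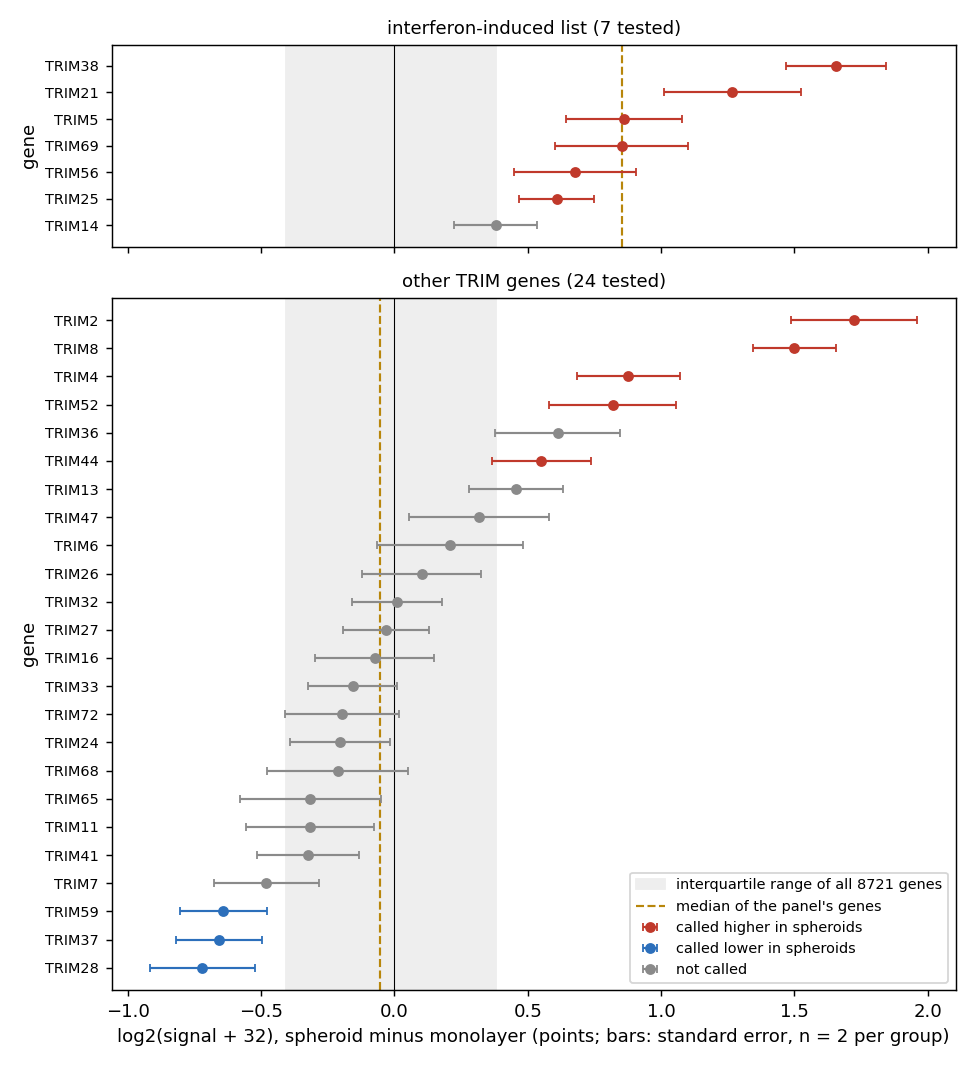
Difference of each tested TRIM gene, spheroid minus monolayer in log2(signal + 32), as points with standard errors from limma (n = 2 cultures per group), with the 7 interferon-induced genes in the upper panel and the 24 others below. The dashed lines mark the panel medians of 0.85 and -0.05 and the grey band is the interquartile range of all 8721 genes, -0.41 to 0.38. All points of the upper panel are right of 0 on this scale, whereas with Bacillus scaling TRIM14, TRIM25 and TRIM56 are left of it.

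Interferon acts on many of its target genes through the interferon-stimulated response element (ISRE), whose core repeats GAAA after a gap of any 2 bases. RefSeq promoter windows of GRCh38.p14, from 250 bases before to 50 bases after an annotated start, were searched for GAAANNGAAA on either strand. A match was present in 3.57% of all 35116 windows, and in at least 1 window of 4.38% of all RefSeq genes and of 3.7% of the tested genes that had one. At least 1 window was found for 43 of the 55 TRIM genes, of which 8 had a match, and 4 of these 8 were among the 7 members of the interferon-induced list that had a window. TRIM25, TRIM38 and TRIM56 had no match in their windows. The sequences below, which show where the core lies in the members with a match that are on the list, are given 5′ to 3′ on the strand of the gene with the core in capitals. TRIM5 (chr11:5685075-5685174), TRIM14 (chr9:98119223-98119322) and TRIM69 (chr15:44736428-44736527) are shown over the 100 bases before the start, and TRIM21 (chr11:4393665-4393694) over 30 bases after it, which hold 2 overlapping matches. TRIM69 lies on the plus strand and the others on the minus strand.
TRIM21: ttctgagcgGAAACTGAAAGTGAAAtaggg
TRIM5: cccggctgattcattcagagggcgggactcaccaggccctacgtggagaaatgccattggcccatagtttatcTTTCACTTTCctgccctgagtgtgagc
TRIM14: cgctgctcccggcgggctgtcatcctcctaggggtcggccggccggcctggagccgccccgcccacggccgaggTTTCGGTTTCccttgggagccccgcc
TRIM69: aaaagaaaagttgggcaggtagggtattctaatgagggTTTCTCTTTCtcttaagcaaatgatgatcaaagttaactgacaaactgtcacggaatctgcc

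The core began 27 bases before the start in TRIM5, 26 bases before it in TRIM14 and 62 bases before it in TRIM69, in each case in the opposite orientation (TTTCNNTTTC), and at bases 18 and 24 after the start in TRIM21. Outside the list the core was present at TRIM2, TRIM16, TRIM26 and TRIM44, of which TRIM2 and TRIM44 were called higher in spheroids and TRIM16 and TRIM26 were not called. TRIM44 (chr11:35662675-35662774, plus strand, the 100 bases before the start) and TRIM2 (chr4:153151913-153152012, plus strand, from 250 to 151 bases before 1 of its 6 annotated starts) are printed for comparison with the members of the list.
TRIM44: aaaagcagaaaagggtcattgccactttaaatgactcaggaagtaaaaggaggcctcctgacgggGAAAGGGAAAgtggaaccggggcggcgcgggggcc
TRIM2: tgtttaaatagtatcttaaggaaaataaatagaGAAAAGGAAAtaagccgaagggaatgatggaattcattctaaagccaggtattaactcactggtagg

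A match is a run of letters and no evidence of binding. Among members with a window, a match was found for 5 of 9 called higher, 0 of 2 called lower and 3 of 13 tested and not called.

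The list is not the whole of the increase, as 2 of the 3 largest differences of the family were in genes outside it. TRIM2, which ends in NHL repeats and in mouse neurons turns over neurofilament light chain, had signals of 1236.1 and 1425.5 in spheroids, against 472.5 and 303.8 in monolayers. This was the largest difference of the family, 1.72 ± 0.24 (limma, adjusted p = 0.000154), and it ranked 193 among all 8721 genes. TRIM8, which acts on SOCS1, NF-kB and p53 pathways and has no known domain after its coiled coil, had signals of 4216.8 and 3945.9 in spheroids and 1476.2 and 1370.3 in monolayers. Replicates lay within 1.08-fold of each other in both groups, and the difference of 1.50 ± 0.16 had the lowest p of the family (limma, adjusted p = 2.17e-05).

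TRIM4, a PRY-SPRY ligase that like TRIM25 ubiquitinates RIG-I, had signals of 1424.8 and 1196.4 in spheroids and 684.1 and 708.4 in monolayers. It was higher by 0.88 ± 0.19 (limma, adjusted p = 0.00353), and the calls of TRIM2, TRIM8 and TRIM4 all held without any 1 array. TRIM52, a short member with an enlarged RING domain, had signals of 683.6 and 655.5 in spheroids against 428.1 and 312.0 in monolayers. Its difference of 0.82 ± 0.24 (limma, adjusted p = 0.0161) was lost without monolayer 2 (0.61, adjusted p = 0.135), spheroid 1 (adjusted p = 0.0724) or spheroid 2 (adjusted p = 0.053). TRIM44 has a ubiquitin-protease type zinc finger in place of the RING, and its signals were 1559.8 and 1617.7 in spheroids and 958.4 and 1204.8 in monolayers. The groups did not overlap, but the difference of 0.55 ± 0.19 (limma, adjusted p = 0.0329; -0.29 under Bacillus scaling) was the smallest that was called and was lost without monolayer 1 (0.39, adjusted p = 0.249), spheroid 1 (adjusted p = 0.0753) or spheroid 2 (adjusted p = 0.104).

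The 3 genes called lower in spheroids belonged to 3 different classes. TRIM28 (KAP1), the corepressor that KRAB zinc finger proteins recruit to silence retroelements, had signals of 5573.7 and 3921.6 in spheroids, against 9323.1 and 6396.4 in monolayers. The 2 cultures of each group were far apart, by 1.42-fold in spheroids and 1.46-fold in monolayers, with the first culture the brighter in both. The difference of -0.72 ± 0.20 (limma, adjusted p = 0.0116) was no longer called without monolayer 1 (-0.45, adjusted p = 0.0582) or spheroid 2 (-0.47, adjusted p = 0.122).

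TRIM37, a MATH-domain ligase that limits centrosome assembly, had signals of 3052.4 and 3671.2 in spheroids and 4715.4 and 5951.9 in monolayers. The groups did not overlap and differed by -0.66 ± 0.16 (limma, adjusted p = 0.00671) and was no longer called without monolayer 2 (-0.49, adjusted p = 0.0609) or spheroid 1 (-0.53, adjusted p = 0.0576). TRIM59, which is anchored in membranes, had signals of 1388.2 and 1490.7 in spheroids and 2212.7 and 2312.4 in monolayers. Replicates were close and the groups well apart, by -0.64 ± 0.16 (limma, adjusted p = 0.00826), and only without monolayer 2 did the call move just past the threshold (-0.61, adjusted p = 0.0515).

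By class, the 18 tested PRY-SPRY genes included 6 called higher (33.3%) and 0 called lower by limma (1 lower at an unadjusted p below 0.05). Of all genes tested, 19.0% were called higher and 20.6% lower. The median difference of the class was 0.16, and all 6 but TRIM4 were on the interferon-induced list. All 3 tested genes listed as having no recognized domain at the carboxyl end were called higher (TRIM8, TRIM52 and TRIM56). The PHD-bromodomain class holds nuclear cofactors that read histone tails. By the probe sets that stood for its 3 tested genes, the spheroid arrays lay below the monolayer arrays without overlap, as for 36.6% of all genes. Only TRIM28 was called, with the nuclear receptor cofactor TRIM24 at -0.21 and the SMAD4 ligase TRIM33 at -0.16. Another TRIM33 probe set ran the other way without overlap and was not called (1750.1 and 2361.1 in spheroids, 1425.0 and 1616.9 in monolayers). The remaining tested probe sets of TRIM33 and TRIM24 overlapped between the groups. Of the NHL class TRIM2 was called higher, whereas TRIM32, mutated in a limb-girdle muscular dystrophy, was at 0.01 ± 0.17, with signals of 1496.6 and 1543.2 in spheroids and 1530.0 and 1492.3 in monolayers. In the transmembrane class TRIM59 was called lower and TRIM13, a ligase of the endoplasmic reticulum, was at 0.46 ± 0.18 (limma, adjusted p = 0.0584). Classes of so few genes are described here by their counts.

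Among the genes that were not called, the 2 with the largest differences were of opposite sign. TRIM36, a microtubule-associated ligase of the COS-box class, had signals of 579.3 and 801.4 in spheroids and 460.9 and 410.8 in monolayers, a difference of 0.61 ± 0.24 (limma, adjusted p = 0.0563) that was called without spheroid 1 (0.84, adjusted p = 0.0368). TRIM7, known as a partner of the glycogen primer glycogenin, had signals of 1589.4 and 1106.6 in spheroids and 1919.1 and 1810.0 in monolayers. Its difference was -0.48 ± 0.20 (limma, adjusted p = 0.0701), and it was called without spheroid 1 (-0.74, adjusted p = 0.0178). By these probe sets the groups did not overlap for either gene. A dimmer TRIM7 probe set ran the other way without overlap and was not called (561.6 and 276.1 in spheroids, 264.9 and 265.9 in monolayers).

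The probe sets of TRIM33 and TRIM27 had the highest mean signals among the genes off the interferon-induced list that were not called. TRIM33 had 1661.8 and 1938.2 in spheroids and 1990.2 and 2016.3 in monolayers, and TRIM27, the RET finger protein, had 1824.5 and 1761.9 in spheroids and 1860.6 and 1805.8 in monolayers. TRIM27 thus overlapped between the groups, at -0.03 ± 0.16 (limma, adjusted p = 0.895). The remaining differences that were not called ran between -0.32 and 0.46. For TRIM65 spheroid 1 stood apart from the other arrays (496.0 and 919.8 in spheroids, 913.9 and 791.0 in monolayers), and the spheroid cultures differed by 1.85-fold. Its difference was 0.11 without spheroid 1, and without spheroid 2, which leaves the low array alone, it was called (-0.74, adjusted p = 0.0426). TRIM16 has a near-identical copy, TRIM16L, whose transcripts its probe set may also bind.

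On chromosome 11 the protein-coding genes TRIM5, TRIM6, TRIM34 and TRIM22 follow one another, while TRIM21 and TRIM68 lie apart from them on the same chromosome. Of the 4 that were tested, TRIM5 and TRIM21 were called higher, whereas TRIM6 (0.21 ± 0.27; 480.6 and 414.5 in spheroids, 491.5 and 295.3 in monolayers) and TRIM68 (-0.21 ± 0.26) overlapped between the groups. In the chromosome 6 list, TRIM38 was called higher and TRIM26 (0.10 ± 0.22) and TRIM27 overlapped. Among all genes tested, 19.0% were called higher.

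Several members were measured by more than 1 probe set on the same arrays. Among others, 1 probe set each of TRIM2, TRIM4, TRIM13 and TRIM56 was below 300 units on both monolayer arrays. Such probe sets passed the filter through the spheroid arrays, which favours a call of higher, so their agreement is no independent check. Across the family 50 probe sets were above 300 units. Of these 50, 20 were called higher and 3 lower, when limma called 16.8% of all 15911 tested probe sets higher and 16.6% lower. Among 14 genes with 2 or more tested probe sets, 11 had differences of 1 sign, and 0 had probe sets called in both directions. All 3 probe sets of TRIM2 were called higher (1.43 to 1.94), as were 3 of 4 of TRIM38 (0.72 to 1.66), and both of TRIM8 (1.18 and 1.50), TRIM4 (0.87 and 0.88), TRIM44 (0.55 and 0.94) and TRIM56 (0.68 and 1.86).

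The probe sets of TRIM56 differed in size of response. The dimmer one had signals of 587.0 and 661.7 in spheroids and 183.7 and 119.1 in monolayers, a larger separation than that of the probe set that stood for the gene. For TRIM25 the second probe set was not called (0.21 ± 0.27, adjusted p = 0.579), with signals of 317.6 and 435.0 in spheroids and 290.8 and 346.8 in monolayers, which overlapped. For TRIM37 the second was not called either (-0.20 ± 0.21, adjusted p = 0.502). TRIM13 had a second probe set that was called higher (0.98 ± 0.23, adjusted p = 0.00955), with 589.7 and 580.8 in spheroids against 267.1 and 293.3 in monolayers. Signs differed between probe sets of TRIM27, TRIM33 and TRIM7, none of them called. The genes TRIM21, TRIM69, TRIM5, TRIM52, TRIM28 and TRIM59 rested on 1 tested probe set each.

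**Figure D3:**
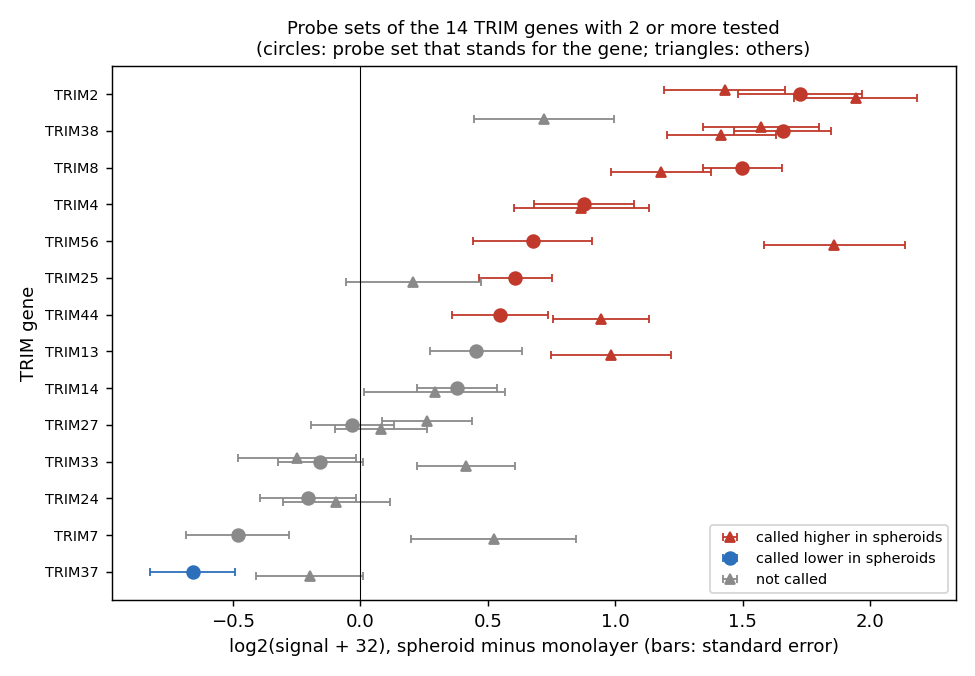
Differences of the tested probe sets (spheroid minus monolayer in log2(signal + 32), with standard errors) for the 14 TRIM genes with 2 or more, where circles mark the probe set that stands for the gene and triangles the others. Probe sets of 11 genes fall on 1 side of 0, while TRIM27, TRIM33 and TRIM7 have points on both sides. With Bacillus scaling the gene values of TRIM13, TRIM14, TRIM25, TRIM44 and TRIM56 change sign.

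The 24 members that did not pass the filter had means of 8.28 to 274.1 units and include the muscle RING-finger genes TRIM54, TRIM55 and TRIM63. On at least 1 array 12 of them were no brighter than the highest unspiked control, and 3 were so on all arrays. With no filter limma called 0 of the 24, with 2 higher and 1 lower at an unadjusted p below 0.05, when it called 6.76% of all 19775 genes higher and 6.66% lower. With a filter at 100 units it called 0 of those left, with 1 higher and 2 lower at that p, when 16.8% of the 11297 genes tested were called higher and 15.7% lower. Among family members with other symbols, MID2, a microtubule-associated relative of the ligase MID1, had signals of 395.0 and 471.6 in spheroids and 166.0 and 283.5 in monolayers and was called higher (0.89 ± 0.29, limma, adjusted p = 0.0285), a call lost with quantile normalization (0.71, adjusted p = 0.0881), whereas MID1 was at -0.13 ± 0.14. PML (TRIM19), the interferon-induced scaffold of nuclear bodies, did not pass the filter, with 402.8 and 238.7 in spheroids and 201.9 and 94.1 in monolayers.

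Several genes of the RNA-sensing and interferon pathways in which antiviral TRIM ligases act differed more than any TRIM gene. Of 13 tested genes of RIG-I and interferon signalling limma called 7 higher and 0 lower (1 lower at an unadjusted p below 0.05), with a median difference of 0.71. Of all genes tested, 19.0% were called higher and 20.6% lower. With quantile normalization IRF1 was no longer called by limma (0.56, adjusted p = 0.0911) and IFNAR1 was called lower (-0.71, adjusted p = 0.0486). Under Bacillus scaling IRF1 and JAK1 lost their calls, and IFNAR1, TBK1 and TYK2 were called lower. IFIH1 (MDA5), a sensor of long double-stranded RNA, had signals of 1758.9 and 2302.3 in spheroids against 191.0 and 145.0 in monolayers (3.36 ± 0.23). RIGI, the RNA sensor that TRIM25 and TRIM4 modify, had signals of 1091.9 and 1566.7 in spheroids against 149.3 and 247.3 in monolayers, a difference of 2.57 ± 0.27 (limma, adjusted p = 2.51e-05). IRF9 and IRF7, transcription factors of the interferon response, were higher by 3.18 ± 0.21 and 2.79 ± 0.20. For each of these 4 genes the groups were several-fold apart. Both monolayer signals of each were below the level of the signal filter, which these genes passed through the spheroid arrays. Passing in this way favours a call of higher, and these 4 genes were among the 7 called higher. The 6 that were not called, which include the receptor chains IFNAR1 and IFNAR2 and the adaptor MAVS, lay between -0.52 and 0.26.

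The E2 enzymes with which TRIM ligases work were called in both directions. Of 12 listed, 7 had a probe set of their own and were tested. These 7 included 1 called higher and 3 called lower, when 19.0% of all genes were called higher and 20.6% lower. Only UBE2L6, the E2 for ISG15, was called higher, with signals of 2154.6 and 1816.0 in spheroids and 629.6 and 690.3 in monolayers (1.54 ± 0.19, limma, adjusted p = 6.73e-05). Under Bacillus scaling UBE2L6 was no longer called (0.70, limma, adjusted p = 0.138). The partners UBE2N and UBE2V2, which together build ubiquitin chains, were called lower, at -0.57 ± 0.15 and -0.70 ± 0.14. UBE2K was also called lower, at -0.43 ± 0.13, a call lost with quantile normalization (-0.33, limma, adjusted p = 0.0642). UBE2N had signals of 7570.5 and 9076.0 in spheroids and 10908.8 and 13908.9 in monolayers, with no overlap.

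**Figure D4:**
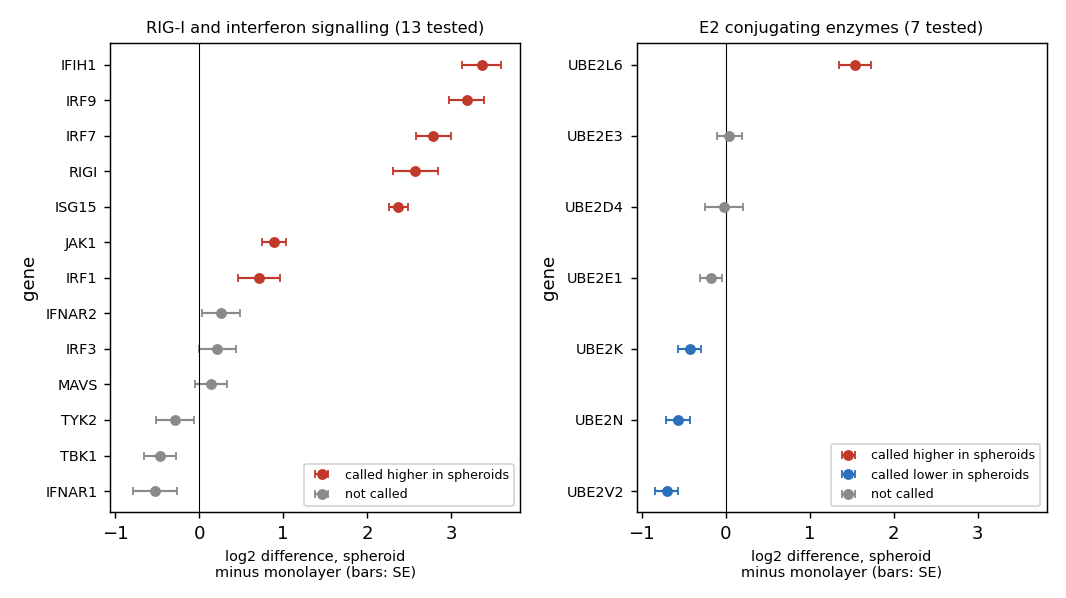
Differences (spheroid minus monolayer in log2(signal + 32), points with standard errors, n = 2 cultures per group) of 13 genes of RIG-I and interferon signalling on the left and of 7 E2 enzymes on the right. On the left 7 genes are called higher and none lower. On the right UBE2L6 is called higher and UBE2K, UBE2N and UBE2V2 lower. With Bacillus scaling IRF1 (-0.10), JAK1 (0.04) and UBE2L6 are no longer called. IFNAR1, TBK1, TYK2 and UBE2E1 are then called lower.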

How the data were processed

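Total RNA from 2 spheroid and 2 monolayer cultures was hybridized as biotin-labelled cRNA to 1-colour oligonucleotide arrays. Intensity is on a linear scale in the deposited table, 1 value for each probe set, after MAS5 normalization by the authors (version not given in the sources used here). Scaling each array to one mean removes any change in total mRNA per cell.

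Platform annotation gave 1 symbol to 41091 probe sets, several to 1801 and none listed to 11721, and 62 were controls. Probe sets with several symbols were not named. Probe sets with a mean signal above 300, the threshold that the methods state, numbered 15911. The brightest per symbol gave 8721 genes, which were fitted as log2(signal + 32) with limma (version 3.58.1, R 4.3.3; lmFit, eBayes with an intensity trend, two-sided, Benjamini-Hochberg over all genes). The constant understates changes of dim genes. The fit had 10.5 prior and 2 residual degrees of freedom and a median standard error of 0.19, and the number of arrays limits precision.

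Arrays correlated across genes at 0.979 within spheroids, 0.984 within monolayers and 0.889 to 0.902 between groups. Ratios of 3' to 5' control signal were 2.82 and 3.00 in spheroids and 2.64 and 2.34 in monolayers for ACTB. For GAPDH they ran the other way, at 0.931 and 0.921 in spheroids and 1.07 and 1.02 in monolayers. The part of these ratios in the results was not tested. The labels give no batch.

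The members, lists and named genes were chosen with earlier results of these data known. Named were all interferon-list members with a probe set and all called TRIM genes. Of those neither called nor on that list, the 2 with the highest mean signal and the 2 with the largest difference were named. Up to 4 called genes of each other list were also named. TRIM65, and genes named with a probe set, class or alternative scaling, were added after their values were seen. Promoter windows came from RefSeq (GRCh38.p14), matched by gene identifier. Comparisons of protein sequence were planned and not run. Alternatives were other filters, constants, scalings, probe set rules and lists, no trend, a replicate block, each array left out and the methods' t-test, stated there for assays other than arrays.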

Additional observations from a re-analysis of the deposited data

How the results depend on the processing

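The 6 increases of TRIM2, TRIM4, TRIM8, TRIM21, TRIM25 and TRIM38 held without any 1 array. Leaving out 1 array at a time gave 7 to 9 TRIM genes called higher and 1 to 3 lower, with a median difference of 0.0335 to 0.328; the interferon-induced list had 4 to 5 called higher and a median of 0.679 to 0.868, and the other TRIM genes 3 to 4 and -0.109 to 0.00777. The main numbers were 11 higher and 3 lower, medians of 0.209 for the family, 0.852 for the list and -0.0525 for the others, with 6 and 5 called higher. Scaling to the Bacillus controls gave 0 higher in every set and 11 lower, and medians of -0.592, 0.0327 for the list and -0.882 for the others, with TRIM25 at -0.248, TRIM44 at -0.292 and TRIM56 at -0.147; among all genes it called 183 higher and 3996 lower, against 1656 and 1799. With no filter 7 were called higher, 3 of them outside the list, where the median was 0.0528; without probe sets marked as shared or cross-hybridizing, which removes TRIM2, TRIM4, TRIM5, TRIM8 and TRIM38, 7 were called higher, 3 of them outside the list. The median of the family was 0.0528 with a filter at 100 units, 0.102 at 600 units and 0.0347 after quantile normalization. The median of the list was 0.676 at 600 units, 0.735 with the largest constant, 0.727 after quantile normalization, 0.764 without shared probe sets and 0.676 for the wider list. The methods' t-test called 0 TRIM genes in either direction after adjustment, in the list and outside it (7 higher and 2 lower at an unadjusted p below 0.05), and 1 higher and 1 lower of all genes. Of 478 values of single TRIM genes under these alternatives and the block, 407 kept their side of the threshold, 49 lost a call in the same direction, 3 lost it with a change of sign and 19 gained one; 25 in all changed sign, 10 of them under Bacillus scaling and 22 of them in genes that were not called, and the cause was not tested.

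Replicate numbers are shared between groups, but the labels tie no number to a day, and deviations of same-numbered arrays correlated at 0.323 over only 2 pairs. With the replicate number as a block limma called 14 TRIM genes higher, adding TRIM13, TRIM14 and TRIM36, and 4 lower, adding TRIM7 (all genes: 2114 and 2301).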

Other observations

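Among the 24 TRIM genes that did not pass the filter, chosen here after their values were seen, both spheroid arrays were above both monolayer arrays for 5 and below both for 4, when 25.6% of all 11054 genes that did not pass were above and 13.2% below in this way. TRIM58, which in red cell precursors takes part in enucleation, had signals of 31.0 and 46.3 in spheroids and 4.27 and 6.65 in monolayers, and both monolayer signals were below the highest unspiked control (35.0). TRIM45 had signals of 276.2 and 239.7 in spheroids and 185.1 and 106.9 in monolayers. TRIM15 ran the other way, with 145.8 and 137.8 in spheroids and 243.4 and 247.9 in monolayers, and TRIM35 likewise with 214.2 and 171.0 in spheroids and 450.1 and 261.1 in monolayers. With no filter, limma called none of these 4 genes after adjustment, at adjusted p of 0.0994 for TRIM58, 0.276 for TRIM45, 0.264 for TRIM15 and 0.240 for TRIM35.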
